A study of Mus musculus with 5 samples.

Results

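The 10 mouse genes described here stand at the output of the Hippo pathway. Among them are the co-activator genes Yap1 and Wwtr1 and the transcription factor genes Tead1, Tead2 and Tead4. The others are Lats2 and Amotl2, genes for inhibitors of YAP, and the target genes Ankrd1, Ccn1 and Ccn2. The 10 genes were taken by symbol from the array features whose platform annotation gives 1 symbol, with the brightest feature for each gene. All 10 were found among 19938 genes tested. Total RNA of undifferentiated C57BL/6 mouse embryonic stem cells was hybridised to Affymetrix whole-transcript arrays, 3 from Mkl2-/- cultures and 2 from wild-type cultures. Both genotypes were kept undifferentiated on feeder fibroblasts in serum and LIF (leukaemia inhibitory factor), and feeders were depleted by adherence before RNA was extracted. Per the series' design text the cultures were independent, but how many cell lines stand behind each genotype, and how the Mkl2 allele was made, is not stated in the sources used here. The p-values therefore measure the spread between cultures, which may come from a single line. The product of Mkl2 (current symbol Mrtfb) belongs to the myocardin family, whose members act as cofactors of serum response factor (SRF).

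The Hippo pathway is a kinase cascade that restrains growth. The kinases MST1 and MST2 activate LATS1 and LATS2, which phosphorylate the co-activators YAP and TAZ (the product of Wwtr1) and hold them in the cytoplasm. Unphosphorylated YAP and TAZ enter the nucleus, bind TEAD proteins on DNA and switch on genes such as Ccn1 (Cyr61), Ccn2 (Ctgf) and Ankrd1, and also Lats2 and Amotl2, which feed back on the pathway. Ccn1, Ccn2 and Ankrd1 are known as targets of SRF with myocardin-related factors as well, and both arms respond to the actin cytoskeleton. In embryonic stem cells YAP and TEAD2 have been linked to self-renewal, and in the early embryo TEAD4 with YAP specifies trophectoderm. Control of YAP and TAZ is largely by phosphorylation and location of the proteins, which an RNA measurement does not see.

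TEAD proteins bind a short element known as the MCAT motif, searched here as the letters GGAATG on either strand (CATTCC on the other). RefSeq promoter windows of build GRCm38.p6, running from 250 bases before to 50 bases after an annotated start, were held for 7 of the 10 genes: Yap1, Wwtr1, Tead2, Lats2, Amotl2, Ankrd1 and Ccn1. The motif letters occurred in a window of 6 of these 7 genes, all but Tead2, against 16.6% of 27025 genes with such windows. The SRF element, searched by its name as the strict CArG box, was in none of the members' windows and in 1.81% of the 27025 genes. Such matches describe letters in a window and are not measured binding. The windows of 4 target genes are shown because their expression readings differed from each other, with the motif letters in capitals.
Ccn1 (chr3:145649936-145650235, minus strand): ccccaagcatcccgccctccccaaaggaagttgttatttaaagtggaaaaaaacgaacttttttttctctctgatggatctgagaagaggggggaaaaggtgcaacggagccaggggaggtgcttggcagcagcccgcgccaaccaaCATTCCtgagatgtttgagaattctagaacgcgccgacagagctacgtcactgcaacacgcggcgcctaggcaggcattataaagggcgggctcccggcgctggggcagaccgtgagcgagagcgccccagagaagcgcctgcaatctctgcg
Lats2 (chr14:57746074-57746373, minus strand): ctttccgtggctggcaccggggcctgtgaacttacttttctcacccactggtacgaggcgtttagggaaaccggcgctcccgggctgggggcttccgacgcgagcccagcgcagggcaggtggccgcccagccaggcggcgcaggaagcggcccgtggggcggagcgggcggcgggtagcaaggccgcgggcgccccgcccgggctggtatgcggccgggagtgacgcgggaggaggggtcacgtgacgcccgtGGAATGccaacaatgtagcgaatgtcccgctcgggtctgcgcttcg
Amotl2 (chr9:102717554-102717853, plus strand): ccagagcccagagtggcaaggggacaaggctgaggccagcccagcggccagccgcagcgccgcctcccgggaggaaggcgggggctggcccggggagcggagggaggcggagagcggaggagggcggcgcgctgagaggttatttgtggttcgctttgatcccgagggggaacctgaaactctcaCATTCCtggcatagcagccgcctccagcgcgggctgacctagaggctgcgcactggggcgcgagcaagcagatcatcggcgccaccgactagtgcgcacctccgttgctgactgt
Ankrd1 (chr19:36119795-36120094, minus strand): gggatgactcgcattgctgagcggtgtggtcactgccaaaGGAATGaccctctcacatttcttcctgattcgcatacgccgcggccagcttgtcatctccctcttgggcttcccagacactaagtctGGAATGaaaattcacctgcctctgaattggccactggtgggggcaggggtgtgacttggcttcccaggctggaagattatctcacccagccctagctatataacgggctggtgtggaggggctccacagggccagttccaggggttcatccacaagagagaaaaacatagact
The match began 103 bases before the start in Ccn1, 65 bases before it in Amotl2, and 210 and 123 bases before it in Ankrd1, while in Lats2 it lay at base 5 of the transcript. Lats2 has a second annotated start, whose window held no match. Yap1 held the letters 141 bases before its start. Wwtr1 held them at a single site shared by both its windows, 136 and 170 bases before its 2 annotated starts.

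The arrays of a genotype resembled each other more than those of the other genotype by correlation, with Pearson r across genes of 0.998 to 0.999 within genotypes and 0.992 to 0.994 between them. By another measure they were less distinct: at 2 decimals, 27.5% of values were identical between Mkl2-/- replicate 1 and wild-type replicate 1 and 26.5% between Mkl2-/- replicate 2 and wild-type replicate 1, but 19.4% between the wild-type arrays. The targeted gene was lower but not lost, with log2 expression of 9.32, 9.32 and 9.09 in Mkl2-/- cells and 9.80 and 9.75 in wild-type cells for its brightest feature (-0.53, limma adjusted p = 0.048). Its other 2 features differed by -0.98 and -0.83. In the fit of all features these passed (limma adjusted p = 0.0309 and 0.0205) and the brightest did not (0.067). Whether any of them lies in the deleted part is not known here. A level counted as background below 7.30, a level under which 95% of 1027 genes for olfactory receptors had their means. Marker lists of stem cells and of other cell types that such cultures can hold were read beside the results. Pou5f1 (12.54, 12.52 and 12.52 in Mkl2-/-, 12.52 and 12.48 in wild type) and Sox2 (11.92, 11.87 and 11.88 in Mkl2-/-, 11.83 and 11.81 in wild type) were above background in both genotypes, while Nanog, Klf4 and other stem cell genes given further on changed.

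Ccn1 fell in Mkl2-/- cells, and so did the TEAD genes Tead1 and Tead4, while Yap1, Wwtr1 and Ccn2 differed little. Ccn1 was 1.79-fold lower, Tead1 1.42-fold lower and Tead4 1.18-fold lower. These 3 of the 10 members, 30.0%, passed the test as lower (adjusted p under 0.05, limma with Benjamini-Hochberg adjustment over all 19938 genes), and none passed as higher. Over all genes 9.27% passed, 6.28% as lower and 2.99% as higher. In a fit of genes above background only, 3 of 9 members passed as lower, against 1537 of 13564 genes. In 6 members, 60.0%, every Mkl2-/- array lay below every wild-type array, against 16.7% of all genes in that direction and 16.9% in the other. The 10 differences, always Mkl2-/- minus wild type on the log2 scale, were all negative with a median of -0.19, while the median over all genes was 0.02 and 36.2% of all genes were negative. The members were chosen with earlier results of these data known, so these shares are a description. Without Mkl2-/- replicate 1, 1 member call was kept (Ccn1), while 333 of all genes passed. Without Mkl2-/- replicate 2 or 3, 0 member calls were kept, while 403 and 448 of all genes passed. The 3 genes stayed lower with any single array left out. In cultures of mixed cells, fewer cells of a type and less RNA per cell cannot be told apart.

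**Figure D1:**
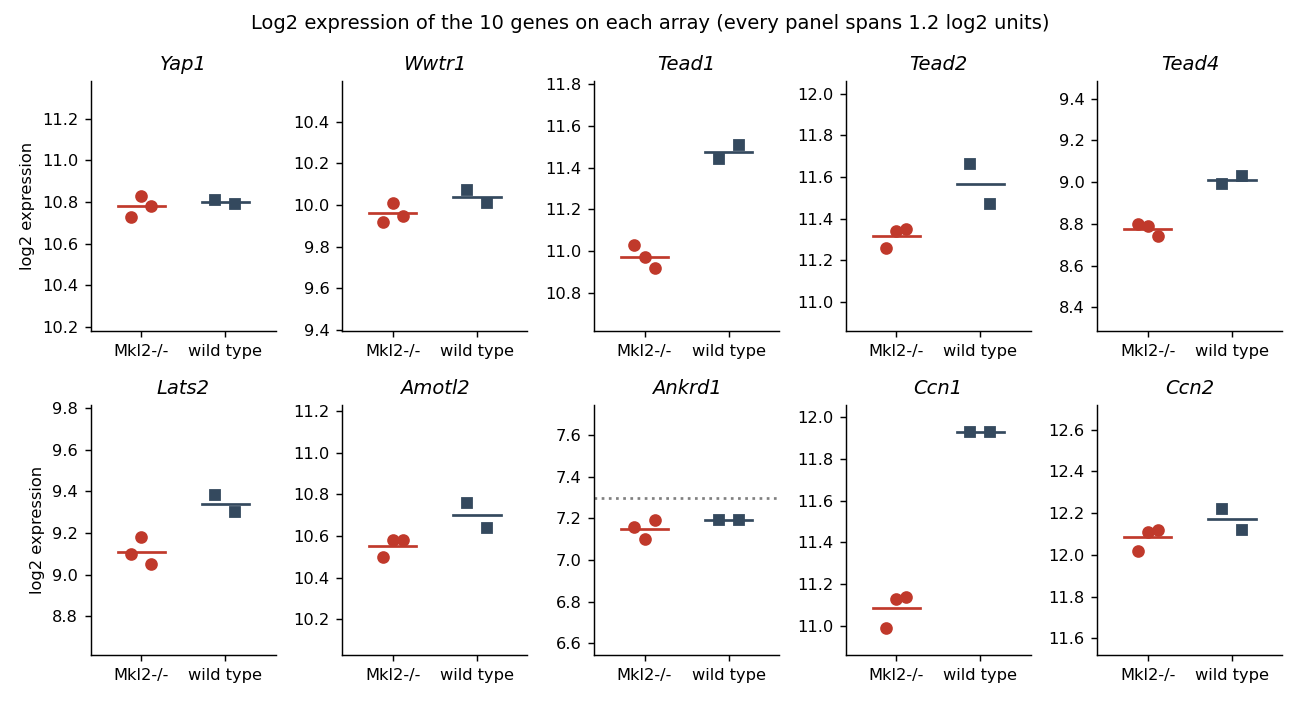
Log2 expression of each of the 10 genes on every array, Mkl2-/- (red circles, 3 arrays) left of wild type (dark squares, 2 arrays), with lines at the group means and a dotted line at the background level of 7.30 in the Ankrd1 panel. Every panel spans 1.2 log2 units, and the clearest gaps are in Ccn1, Tead1 and Tead4.

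Of the co-activators, Yap1 read 10.73, 10.83 and 10.78 in Mkl2-/- cells and 10.81 and 10.79 in wild-type cells. The wild-type arrays lay inside the Mkl2-/- range. The difference was -0.02 ± 0.03 (SE, n = 3 and 2, limma adjusted p = 0.721), with a 95% confidence interval from -0.12 to 0.08. Wwtr1, which encodes TAZ, read 9.92, 10.01 and 9.95 in Mkl2-/- cells and 10.07 and 10.01 in wild-type cells, so the groups touched at 10.01. Its difference of -0.08 ± 0.04 (limma adjusted p = 0.332) had an interval from -0.18 to 0.02. For neither transcript did the interval reach the size of the change of Tead1, whose interval ended at -0.38.

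Tead1 encodes the TEAD factor best known from heart and skeletal muscle. Its brightest feature read 11.03, 10.97 and 10.92 in Mkl2-/- cells and 11.44 and 11.51 in wild-type cells. All Mkl2-/- arrays were below both wild-type arrays, and the gap exceeded the spread within either group. The difference of -0.50 ± 0.04 (limma adjusted p = 0.0141, interval from -0.62 to -0.38) ranked 594th from the lowest of 19938 genes. A second feature of Tead1 read 11.00, 11.03 and 10.97 in Mkl2-/- cells and 11.39 and 11.45 in wild-type cells. It differed by -0.42 ± 0.03, and in the limma fit of all 35556 features both features of Tead1 passed, with adjusted p = 0.0216 for the brightest and 0.0171 for the second.

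Tead4, the TEAD gene of the trophectoderm, read 8.80, 8.79 and 8.74 in Mkl2-/- cells and 8.99 and 9.03 in wild-type cells. The groups did not overlap, and the fall of 0.23 was small but even over the arrays (-0.23 ± 0.03, limma adjusted p = 0.0225). Tead2, a TEAD gene expressed from the earliest stages of the mouse embryo, read 11.26, 11.34 and 11.35 in Mkl2-/- cells and 11.66 and 11.47 in wild-type cells. Its difference was as large as that of Tead4, but the wild-type arrays had an SD of 0.13, and the test was not passed (-0.25 ± 0.07, limma adjusted p = 0.141). Tead3, the remaining gene of the family and not a member, read 8.98, 9.06 and 9.06 in Mkl2-/- cells and 9.07 and 9.06 in wild-type cells, with an interval from -0.12 to 0.06. Measured within each array, Tead1 minus Tead3 was 2.05, 1.91 and 1.86 in Mkl2-/- cells and 2.37 and 2.45 in wild-type cells. The groups of this ratio did not overlap. The exact two-sided permutation test gave p = 0.2, the smallest that 3 against 2 arrays allow. Tead1 minus Tead2 was -0.23, -0.37 and -0.43 in Mkl2-/- cells and -0.22 and 0.04 in wild-type cells, so its groups nearly touched.

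**Figure D2:**
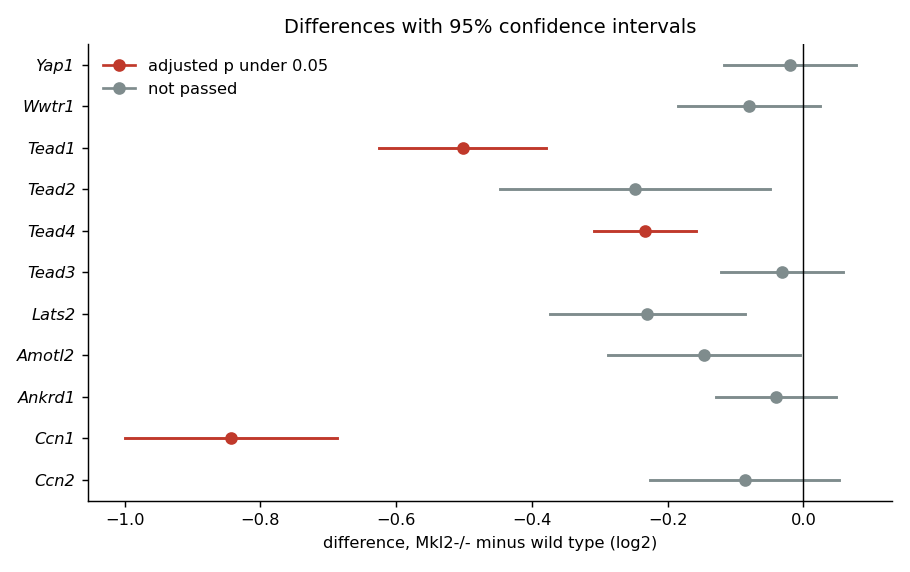
Difference in log2 expression, Mkl2-/- minus wild type, for the 10 members and Tead3, with 95% confidence intervals from the limma fit (3 Mkl2-/- and 2 wild-type arrays). Red marks the 3 genes with an adjusted p under 0.05, and the intervals of Yap1, Wwtr1, Ankrd1, Ccn2 and Tead3 span 0.

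Both genes for YAP inhibitors, which YAP is known to switch on, had non-overlapping arrays without passing the test. Lats2, the kinase gene, read 9.10, 9.18 and 9.05 in Mkl2-/- cells and 9.38 and 9.30 in wild-type cells (-0.23 ± 0.05, limma adjusted p = 0.0859). Lats2 passed as lower after a further cyclic loess or quantile normalization, with differences of -0.23 (adjusted p = 0.0243) and -0.19 (adjusted p = 0.0498). Amotl2 encodes an angiomotin family protein that binds YAP at cell junctions. It read 10.50, 10.58 and 10.58 in Mkl2-/- cells and 10.76 and 10.64 in wild-type cells (-0.15 ± 0.05, limma adjusted p = 0.205). Lats1, the paralogous kinase gene, differed by -0.06 ± 0.04 (limma adjusted p = 0.416). Lats2 minus Lats1 within an array was -1.71, -1.63 and -1.67 in Mkl2-/- cells and -1.43 and -1.56 in wild-type cells, without overlap (exact permutation p = 0.2).

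Among the targets, the matricellular protein genes Ccn1 and Ccn2 differed in their readings. Ccn1 read 10.99, 11.13 and 11.14 in Mkl2-/- cells and 11.93 on both wild-type arrays. Every Mkl2-/- array was lower by a wide margin, and the difference of -0.84 ± 0.06 was the 181st lowest of 19938 (1.79-fold lower, interval 1.61 to 2.00, limma adjusted p = 0.00979). Ccn2 read 12.02, 12.11 and 12.12 in Mkl2-/- cells and 12.22 and 12.12 in wild-type cells. The groups touched at 12.12, and the difference of -0.09 ± 0.05 did not pass (limma adjusted p = 0.393, interval from -0.23 to 0.05). The intervals of both genes lie apart. Within each array Ccn1 minus Ccn2 was -1.03, -0.98 and -0.98 in Mkl2-/- cells and -0.29 and -0.19 in wild-type cells, a difference of -0.76. The exact two-sided permutation p was again the 0.2 that the design bounds. It was also 0.2 for the other pairs computed, Tead1 minus Tead2 and Wwtr1 minus Yap1, and 0.2 after Benjamini-Hochberg adjustment over the 5 pairs, which were chosen after the values were seen.

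Ankrd1, which encodes a cardiac ankyrin repeat protein and is a standard YAP readout in fibroblasts and epithelial cells, gave no usable reading. It read 7.16, 7.10 and 7.19 in Mkl2-/- cells and 7.19 on both wild-type arrays, all under the background level of 7.30. No fold is given for it.

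Genes near the members on their chromosomes had medians near 0. The 24 expressed genes around Ccn1, 12 on each side in RefSeq order, had a median difference of 0.01, those around Tead1 -0.01 and those around Tead4 0.04. Around the other members the median ran from -0.09 at Ccn2 to 0.07 at Tead2. By array pattern, the expressed genes nearest to Ccn1 were Prss23, a serine protease gene, and Flnc, which encodes filamin C. After each gene was centred on its own mean over the 5 arrays, their root mean square distances from Ccn1 were 0.029 and 0.034 log2 units. Prss23 differed by -0.85 and Flnc by -0.82. Nearest to Tead1 were Atp10a, a lipid flippase gene, and Siah1b, a ubiquitin ligase gene, at 0.0040 and 0.012, with differences of -0.50 and -0.48. With 5 arrays in 2 genotypes, genes of about equal difference lie close by this measure.

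Other genes known as YAP and TEAD targets were read from a list fixed without the members, and most of those measured fell. Of 25 listed genes 23 were measured and 21 had means above background. In Mkl2-/- cells 13 of the 23 fell (56.5%, against 6.28% of all genes), none rose and 10 did not pass, and the list's median difference was -0.45. In the fit of genes above background only, 15 of 21 fell, against 1537 of 13564 genes. The list was made with earlier results of these data in view, 3 of its genes (Tgfb1, Tgfb2 and Thbs1) also belong to the TGF-beta pathway, and it is not independent evidence. The count of falls was 5, 8 and 6 without Mkl2-/- replicates 1, 2 and 3. In the same fits 253, 309 and 326 of all 19938 genes fell.

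By the smallest p, the leading targets were Axl, Igfbp3, Tgfb1 and Nuak2. Axl, a receptor tyrosine kinase gene, read 9.14, 9.22 and 9.19 in Mkl2-/- cells and 9.94 on both wild-type arrays (-0.76 ± 0.03, limma adjusted p = 0.00599). Igfbp3, a gene for a binding protein of insulin-like growth factors, read 10.82, 10.75 and 10.86 in Mkl2-/- cells and 12.32 and 12.46 in wild-type cells. That is 2.99-fold lower (-1.58 ± 0.06, limma adjusted p = 0.00599), a larger difference than that of Ccn1. Tgfb1, a TGF-beta ligand gene, read 9.20, 9.21 and 9.15 in Mkl2-/- cells against 9.78 and 9.82 in wild-type cells. Nuak2, a kinase gene of the AMPK-related family, read 8.37, 8.44 and 8.37 in Mkl2-/- cells against 9.17 and 9.11 in wild-type cells (-0.75 ± 0.03, limma adjusted p = 0.00679). In all 4 genes the arrays of the genotypes were far apart.

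Further falls, named after their values were seen, were in Tgfb2 (-1.75), Nt5e (-1.42), which encodes the ecto-nucleotidase CD73, Fstl1 (-0.88), a follistatin-like secreted protein gene, Ptgs2 (-0.76), which encodes cyclooxygenase-2, and Edn1 (-0.67), which encodes endothelin-1. The smaller falls were in Thbs1 (-0.46), Ptpn14 (-0.29), Crim1 (-0.23) and Dock5 (-0.18). Of the 13 falls 9 reached 1.5-fold. Among the genes that did not pass, F3 (-0.45), which encodes tissue factor, and Myof (-0.42), which encodes myoferlin, had all Mkl2-/- arrays below the wild-type arrays, while Birc5 (0.155), which encodes survivin, had all of them above. Over the list 17 of 23 genes were separated as lower and 1 as higher, against 16.7% and 16.9% of all genes. The 17 include Ccdc80, which was below background on every array. Edn1 read 7.42, 7.23 and 7.47 in Mkl2-/- cells, near the background level of 7.30. Fjx1 (-0.03), Asap1 (-0.05) and Arhgef17 (-0.05) were near 0. Nuak2, Tgfb2, Ptpn14 and Ptgs2 are genes of chromosome 1, where the median over 758 expressed genes was itself -0.17. Of these chromosome 1 genes 30.3% passed as lower, against 6.28% of all genes, expressed or not. In the fit of genes above background only, 1537 of 13564 genes fell. On the other chromosomes 9 of 19 listed targets fell, with a median of -0.42.

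**Figure D3:**
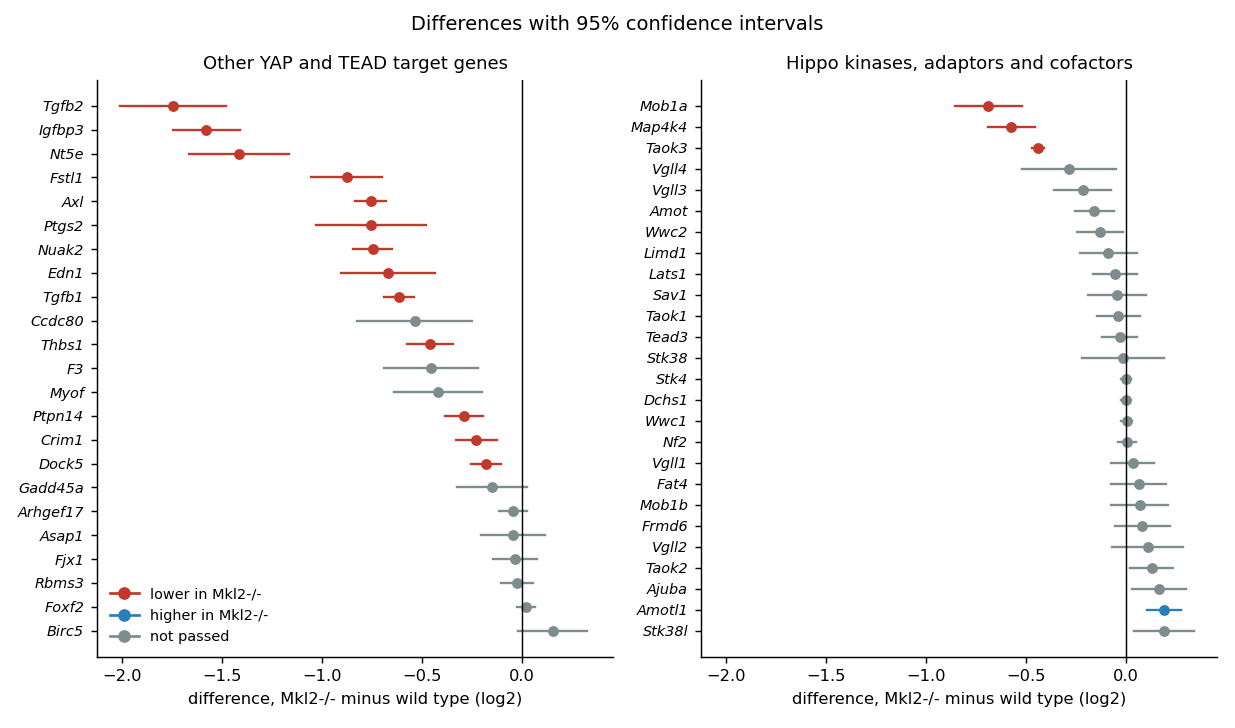
Difference in log2 expression, Mkl2-/- minus wild type, with 95% confidence intervals, for 23 other YAP and TEAD target genes (left) and 26 Hippo kinases, adaptors and cofactors (right), each sorted by size. Red marks genes past the test as lower (13 left, 3 right) and blue the 1 gene past it as higher, Amotl1.

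The upstream kinases and adaptors of the pathway and the TEAD cofactors of the Vgll family had 4 calls. Of 27 listed genes 26 were measured, 3 fell (11.5%, against 6.28% of all genes), 1 rose (against 2.99%) and 22 did not pass, with a median difference of -0.01. In the fit of genes above background only, 3 of 25 fell, against 1537 of 13564 genes, a similar share. The number that passed was 2 without any 1 Mkl2-/- array, all of them lower. Without Mkl2-/- replicates 1, 2 and 3, 253, 309 and 326 of all genes fell. Taok3, a TAO kinase gene upstream of the cascade, read 8.55, 8.55 and 8.56 in Mkl2-/- cells and 9.0 and 8.99 in wild-type cells (-0.44 ± 0.01, limma adjusted p = 0.00414). Map4k4, a kinase gene acting beside MST1 and MST2, fell by 0.57 on the log2 scale (± 0.04, limma adjusted p = 0.0109), and lies on chromosome 1. Mob1a, which encodes a LATS co-activator, read 8.98, 9.02 and 8.90 in Mkl2-/- cells and 9.59 and 9.72 in wild-type cells (-0.69 ± 0.06, limma adjusted p = 0.0139). Its 24 neighbours on chromosome 6 had a median difference of -0.35, and 11 of them fell. Amotl1, an angiomotin gene and relative of Amotl2, rose to 9.39, 9.47 and 9.43 in Mkl2-/- cells, against 9.22 and 9.26 in wild-type cells (0.19 ± 0.03, limma adjusted p = 0.0451). This single rise was lost with any array left out, with array weights and in the fit of all features. Among genes that did not pass were Nf2 (0.01), which encodes merlin, Sav1 (-0.05), a scaffold gene of the MST kinases, and Stk4, which encodes MST1 and read 10.74 on all 5 arrays. Stk4 and Dchs1 are 2 of 766 genes whose deposited value is the same on every array.

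Markers of other cell types were compared in the same way. The fibroblast list, for the feeder cells in which YAP targets are known to be strongly expressed, had a mean log2 expression of 7.78 to 7.83 in Mkl2-/- arrays and 7.87 to 7.89 in wild-type arrays. Of its 19 measured genes 2 fell and 1 rose (against 6.28% and 2.99% of all genes), and 16 did not pass, with a median of -0.06. Pdgfrb (7.85, 7.81 and 7.76 in Mkl2-/-, 8.05 and 8.13 in wild type) and Mmp2 (-0.26) fell, and Twist1 (0.31) rose. Col1a1 (-0.29), Col1a2 (-0.08), Col3a1 (0.05) and Thy1 (-0.08) did not pass. In 5 of the 19 genes all Mkl2-/- arrays lay below the wild-type arrays, and in 2 above them. Over all genes these shares were 16.7% and 16.9%. The 5 were Pdgfrb, Mmp2, Col1a1, Dcn (-0.195) and Twist2 (-0.19), and the 2 were Twist1 and S100a4 (0.08). Lum, Postn and Fap were below background on every array. With the fibroblast mean as a covariate, a fit chosen after seeing the data, Ccn1 differed by -0.93, Tead1 by -0.51 and Tead4 by -0.27. The differences were as large as without it, but no gene passed in that fit, and Ccn1 had a limma adjusted p of 0.157. The fit has 2 residual degrees of freedom (2976 genes had an unadjusted p under 0.05). Because the fibroblast mean was lower on every Mkl2-/- array than on both wild-type arrays, this fit cannot separate fibroblast content from genotype. The part of fibroblast content in the differences of the members was therefore not tested.

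In the primitive endoderm list 6 of 15 genes rose and 1 fell (against 2.99% and 6.28% of all genes), with means of 8.93 to 9.10 in Mkl2-/- arrays and 8.42 to 8.50 in wild-type arrays. Cubn (2.87), an endocytic receptor gene, Lama1 (1.45), a laminin chain gene, and the transcription factor genes Gata4 (0.93) and Gata6 (0.94) were among those that rose. Cubn read 6.57 and 6.31 on the wild-type arrays, below background, so its difference is measured from the floor. Sparc (-0.24) fell, while Dab2 (-0.06) and Foxa2 (8.27 on every array) did not pass. In the trophoblast list, of interest for Tead4, 4 of 12 genes fell (against 6.28% of all genes) and none rose, with means of 8.81 to 8.89 in Mkl2-/- arrays and 8.97 in both wild-type arrays. Cdx2 read 8.13, 8.10 and 8.17 in Mkl2-/- cells and 8.48 and 8.53 in wild-type cells (-0.37, limma adjusted p = 0.0126). The other falls were in the keratin genes Krt18 (-0.65) and Krt8 (-0.54), and a small one in Esx1 (-0.095). Eomes differed by -0.01. Hand1 had all Mkl2-/- arrays above the wild-type arrays without passing (0.47, limma adjusted p = 0.0654). Of 15 stem cell genes 4 rose and 3 fell (against 2.99% and 6.28% of all genes). Nanog (-1.14, limma adjusted p = 0.00818), Klf4 (-0.69) and Tfcp2l1 (-0.67), which lies on chromosome 1, fell. Dppa4 (0.74), Fgf4 (0.67), Dppa5a (0.49) and Utf1 (0.39) rose. Among the 8 that did not pass were Esrrb (-0.02), Zfp42 (-0.14) and Tbx3 (-0.15). The part of the stem cell, endoderm and trophoblast markers in the differences of the members was not tested.

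**Figure D4:**
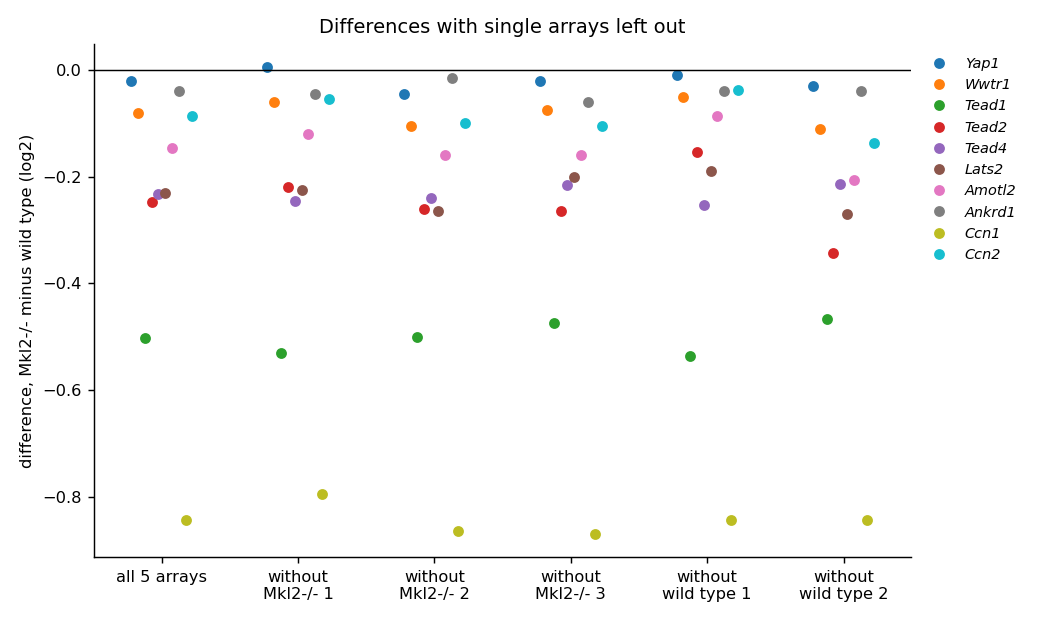
Difference in log2 expression, Mkl2-/- minus wild type, of each of the 10 members with all 5 arrays and with each single array left out. Ccn1 stays between -0.87 and -0.80 and Tead1 between -0.54 and -0.47, while Yap1 lies at 0.005 without Mkl2-/- replicate 1.

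Leaving out single arrays moved the differences of Ccn1, Tead1 and Tead4 little, as the plot of the left-out arrays shows, but ended most of their calls. Ccn1 ranged from -0.87 to -0.80 and its adjusted p from 0.032 to 0.081, passing only without Mkl2-/- replicate 1. Tead1 (adjusted p from 0.0538 to 0.0894) and Tead4 (adjusted p from 0.0623 to 0.115) passed in none of these 5 fits, each of which has fewer residual degrees of freedom. Other members moved more for their size. Tead2 differed by -0.15 without wild-type replicate 1 and -0.34 without wild-type replicate 2, Amotl2 by -0.09 and -0.21, and Ccn2 by -0.04 and -0.14. Yap1 changed sign, between -0.045 and 0.005, and Ankrd1 lay between -0.06 and -0.015.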

How the data were processed

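The authors deposited log2 intensities from RMA (background correction, quantile normalization and probe summary, which compresses differences of dim genes). Per the submitters' processing notes, Affymetrix Expression Console 1.1 was used. The values run from 3.39 to 14.26, and 0 sample columns were left unused. Of 35556 features 21789 had 1 symbol, updated by Entrez identifier to RefSeq of assembly GRCm38.p6. Keeping the brightest feature (999 genes had several) gave 19938 genes, 13564 of them above background.

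Genotypes were compared in R 4.3.3 by limma 3.58.1 (lmFit, eBayes; 3 residual and 0.885 prior degrees of freedom), two-sided, with Benjamini-Hochberg adjustment over all genes and a threshold of 0.05. The fit was tested on simulated data.

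The members, lists and tests were chosen with earlier results of these data known. By rule the text names all members, Mkl2, Tead3, the 4 genes of smallest p in each pathway list, defining cell markers, and the 2 genes nearest by array pattern to each member that passed with a difference of at least 0.5. Other genes were named after their values were seen. Alternatives were cyclic loess and quantile normalization, a background filter, trend with robust moderation, feature means, all features, array weights, a 1.5-fold minimum, the replicate block, a fibroblast covariate and single arrays left out. Figures used matplotlib 3.10.9 in Python 3.11.15.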

Additional observations from a re-analysis of the deposited data

How the results depend on the processing

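The 10 members kept their direction in 136 of 139 values under 14 alternatives. The other 3 were Yap1 at 0.005 after quantile normalization and at 0.005 without Mkl2-/- replicate 1 (range over arrays left out -0.045 to 0.005), and Ankrd1 at 0.042 with the fibroblast covariate (chosen after seeing the data). None of these passed the test. Ccn1, Tead1 and Tead4 were lower in all 42 of their values and past the test in 22. With the replicate block, 0 members, 0 genes of either pathway list and 0 of all genes passed, with 1 residual degree of freedom and 3827 genes at an unadjusted p under 0.05. The labels give the samples only a number and state no pairing. Deviations of same-numbered arrays from their group means correlated at -0.201 and 0.191. The deviations of the 2 wild-type arrays mirror each other (correlation -1), so these values cannot show whether arrays were paired. The fibroblast covariate also left 0 in each. With single arrays left out, calls ran from 0 to 1 among the members, 0 to 3 among the Hippo genes, 0 to 8 among the other targets and 0 to 963 among all genes. A 1.5-fold minimum left 1 member, 1 Hippo gene and 504 genes in all. Over all genes 1848 passed, 32.3% of them higher, against 2949 after cyclic loess and 2906 (43.2% higher) after quantile normalization, which gave 7 Hippo genes. Fits with fewer arrays, the block or the covariate have fewer residual degrees of freedom; the cause of the other changes was not tested. With 5 arrays, signal within the background (Ankrd1) and small differences limit what can be read.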
